A study of Mus musculus with 6 samples.

Results

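Non-coding TCR-β clones are rearranged Trb genes whose mRNA was sequenced although its reading frame is broken in the CDR3, the hypervariable loop that contacts the antigenic peptide. They were taken from the TCR-β libraries of splenic CD4+ T cells of 3 mice and set against the coding clones of the same libraries. A clone was called frameshift when its CDR3 length broke the reading frame, stop when the frame was kept but a stop codon lay inside the CDR3, and coding otherwise. Of 350245 spleen clones, 21900 were non-coding, namely 21049 frameshift and 851 stop clones, and 328345 were coding. All mice were C57BL/6 wildtype and underwent reversible obstruction of the right ureter (RUUO) from day 0 to 6 and ligation of the left ureter (UUO) from day 17 until organs were taken on day 22. No untreated mice were analysed here, and each library came from 1 mouse. The CD4+ T cells were enriched with magnetic beads and sorted by flow cytometry, and since only TCR-β transcripts were sequenced, their identity could not be checked against other markers.

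In the thymus, a V, a D and a J segment of the Trb locus are joined by the RAG recombinase. Exonucleases trim the segment ends and terminal deoxynucleotidyl transferase adds bases without a template, so that many joints lose the reading frame. A T cell that carries such a joint on one chromosome lives by a coding joint on the other. The broken joint yields no receptor of its own, and non-coding clones are therefore commonly read as rearrangements before selection and coding clones as rearrangements after it. mRNA with a premature stop codon is known to be degraded by nonsense-mediated decay. The libraries were made from mRNA with unique molecular identifiers (UMIs), random tags that mark each molecule before PCR, and how many cells went into each is not given in the sources used here. The number of cells of a clone and the mRNA per cell can therefore not be told apart in these data.

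The largest non-coding clones show what these joints look like. The 2 frameshift clones with the most UMIs in each spleen, and the only stop clone that led its spleen without a tie, are given 5′ to 3′ from the conserved cysteine codon, with the bases between the V and the J part in capitals for frameshift clones and the stop codon in capitals for the stop clone.
Mouse 1, Trbv13-1 and Trbj1-2: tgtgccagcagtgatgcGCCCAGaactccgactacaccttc
Mouse 1, Trbv1 and Trbj2-3: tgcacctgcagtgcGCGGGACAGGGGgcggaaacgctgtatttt
Mouse 2, Trbv31 and Trbj2-7: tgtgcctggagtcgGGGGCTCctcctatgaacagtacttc
Mouse 2, Trbv31 and Trbj2-4: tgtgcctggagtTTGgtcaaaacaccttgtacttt
Mouse 3, Trbv5 and Trbj1-3: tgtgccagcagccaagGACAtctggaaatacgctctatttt
Mouse 3, Trbv31 and Trbj1-4: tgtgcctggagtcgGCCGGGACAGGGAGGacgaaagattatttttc
Mouse 3, stop clone, Trbv5 and Trbj1-5: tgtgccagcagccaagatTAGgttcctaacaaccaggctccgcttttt

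In mouse 1, the Trbv13-1 clone held 42 UMIs and the Trbv1 clone 11. In mouse 2, the Trbv31 clone with Trbj2-7 held 62 UMIs and the Trbv31 clone with Trbj2-4 held 51. In mouse 3, each of the frameshift clones held 5 UMIs and the stop clone held 3. The 62 UMIs of the largest one made up 0.0263% of the UMIs of its spleen, where it ranked 15th among all clones. The Trbv13-1 clone was also found with 1 UMI, the Trbv1 clone with 4 UMIs and the Trbv31 clone with Trbj2-7 with 3 UMIs in the UUO kidney of the same mouse. None of the 7 was found in the spleen of another mouse. None was 1 base away from a clone of its library with the same V and J and at least 2 times its UMIs.

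The 3 spleen libraries held 168346, 236000 and 102453 UMIs. The spleens of mice 1, 2 and 3 had 7483, 9903 and 4514 non-coding clones out of 117321, 150332 and 82592. Their share of the clones was 6.38% in mouse 1 (exact 95% binomial interval 6.24% to 6.52%), 6.59% in mouse 2 (6.46% to 6.71%) and 5.47% in mouse 3 (5.31% to 5.62%), with a mean of 6.14% ± 0.597 (SD, n = 3). The intervals cover counting error only. The share was lowest in mouse 3, which had the fewest UMIs. Of the UMIs, non-coding clones held 4.85%, 4.74% and 4.61% in mice 1, 2 and 3, with a mean of 4.73% ± 0.123 (SD, n = 3). Stop clones numbered 298, 364 and 189, or 0.242% ± 0.0126 (SD, n = 3) of the clones. Among frameshift clones, the length left a remainder of 1 base after whole codons in 52.0%, 51.5% and 52.4%, so that the 2 possible shifts were nearly equally common. The kidneys held 29, 49 and 35 non-coding clones among 512, 809 and 508 clones, of which 2, 1 and 0 were stop clones. By a limit of 3 counts, used for counts of 0 throughout, the 0 in mouse 3 allows a share of stop clones of up to 0.591%. Of the kidney non-coding clones, 11, 15 and 7 were also seen in their own mouse's spleen and 0 of 113 in the spleens of the other mice, which allows up to 2.65%.

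V gene use differed most between the 2 classes. Trbv24, Trbv22, Trbv21, Trbv12-1, Trbv12-2, Trbv29, Trbv17 and Trbv4 took a larger share of non-coding than of coding clones, by 2.34-fold to 46.3-fold, and the Trbv13 family, Trbv1, Trbv2, Trbv3 and Trbv20 took a smaller share. The Trbv segment encodes the first part of the β chain with the CDR1 and CDR2 loops, and Trbj the end of the CDR3. Numbers of distinct clones per gene were compared by edgeR's quasi-likelihood test with the mouse as a block and Benjamini-Hochberg adjustment. Of 24 Trbv genes tested, 21 passed at an adjusted p under 0.05 (87.5%), 10 higher (41.7%) and 11 lower (45.8%) in non-coding clones. Since the shares of a class add up to a whole, a rise of some genes lowers the shares of all others. Small falls need therefore not be particular to a gene. Without Trbv4, 17 of 23 genes passed, 9 higher and 8 lower. The shares of coding and of non-coding clones did not overlap over the 3 mice for 20 genes, and overlapped for Trbv5, Trbv23, Trbv30 and Trbv31.

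**Figure D1:**
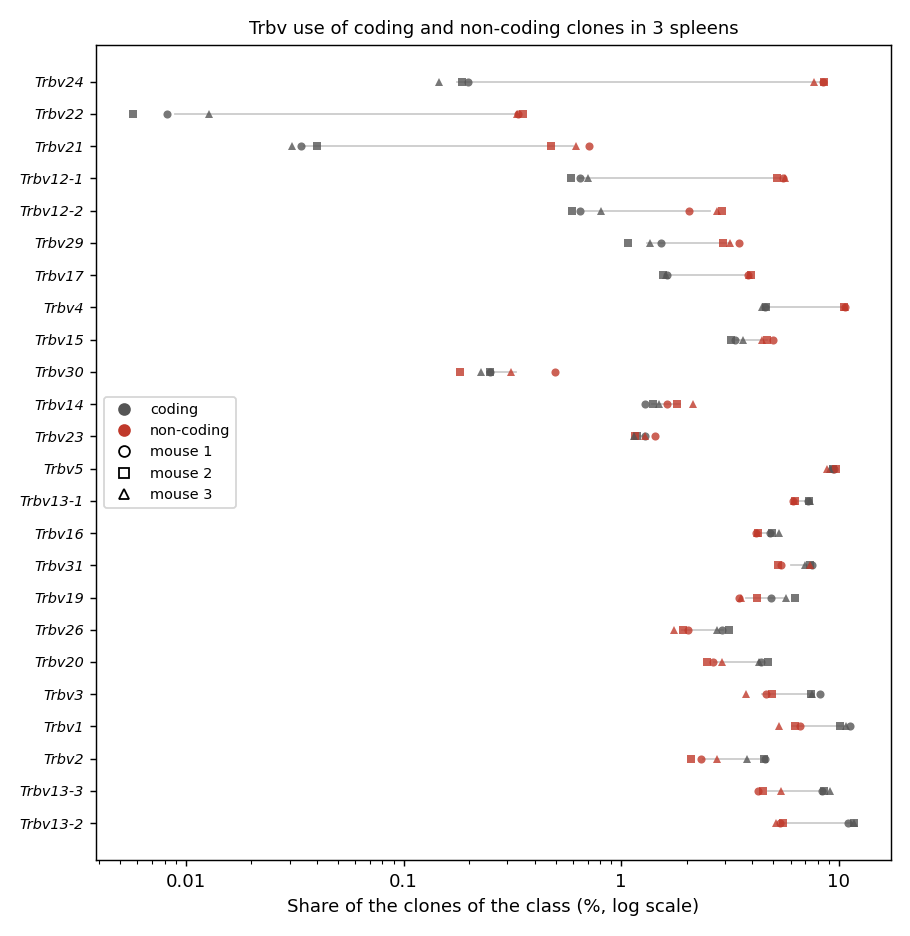
Share of the clones of each class (x axis, %, log scale) that used each Trbv gene (y axis, ordered by the ratio of non-coding to coding), with grey symbols for coding and red symbols for non-coding clones, a symbol shape for each of the 3 mice and a line between the class means. Trbv24 lay at 0.146% to 0.198% of coding and at 7.64% to 8.57% of non-coding clones, and Trbv5 lay at about the same share in both.

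Trbv24 (chromosome 6, 41218091 to 41218557, GRCm38) showed the largest difference. It was used by 0.198%, 0.187% and 0.146% of coding clones and by 8.46%, 8.57% and 7.64% of non-coding clones in mice 1, 2 and 3. Every non-coding value lay far above every coding value. The log2 fold change was 5.53 (SE 0.09, edgeR adjusted p = 2.96e-09), and the gene ranked 22nd of 24 among coding and 3rd among non-coding clones. Over the 3 spleens it was used by 593 coding and 1827 non-coding clones, so that 75.4% ± 0.987 (SD, n = 3) of the Trbv24 clones of a spleen were non-coding.

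Trbv22 (41212075 to 41212534) and Trbv21 (41202587 to 41203044) lie upstream of Trbv24 on the same chromosome and were rare in both classes. Trbv22 is annotated as a pseudogene in RefSeq. It was used by 0.00819%, 0.0057% and 0.0128% of coding clones and by 0.334%, 0.353% and 0.332% of non-coding clones (log2 fold change 5.34, SE 0.48, edgeR adjusted p = 2.67e-05). Over the 3 spleens these were 27 coding and 75 non-coding clones. Trbv21 was used by 0.0337%, 0.0399% and 0.0307% of coding and by 0.708%, 0.475% and 0.620% of non-coding clones (log2 fold change 4.05, SE 0.32, edgeR adjusted p = 1.6e-05), or 117 and 128 clones. Between these genes and Trbv24 lies Trbv23, which took 1.21% ± 0.078 of coding and 1.29% ± 0.134 (SD, n = 3) of non-coding clones and did not pass the test (log2 fold change 0.09, SE 0.11, edgeR adjusted p = 0.483).

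The Trbv12 family took 1.29%, 1.19% and 1.51% of coding clones and 7.60%, 8.10% and 8.37% of non-coding clones. Both of its members rose. Trbv12-1 (41113567 to 41114067) was used by 0.645%, 0.590% and 0.706% of coding and by 5.55%, 5.20% and 5.63% of non-coding clones (log2 fold change 3.08, SE 0.08, edgeR adjusted p = 3.59e-08). Trbv12-2 (41118864 to 41119364) was used by 0.645%, 0.597% and 0.808% of coding and by 2.06%, 2.90% and 2.75% of non-coding clones (log2 fold change 1.93, SE 0.15, edgeR adjusted p = 1.26e-05). The members thus lay at similar levels among coding clones and apart among non-coding clones.

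The Trbv12 and Trbv13 genes alternate along the chromosome, and the Trbv13 family went the other way. It took 26.5%, 27.5% and 28.3% of coding and 15.8%, 16.2% and 16.8% of non-coding clones. Trbv13-2 (41121396 to 41121832), the most used gene among coding clones, fell from 10.96%, 11.7% and 11.8% to 5.39%, 5.50% and 5.16% (log2 fold change -1.09, SE 0.05, edgeR adjusted p = 1.38e-06). Trbv13-3 fell by 0.89 and Trbv13-1 by 0.23 on the log2 scale, and all 3 members passed the test. Trbv13-1 did not pass without mouse 1 (edgeR adjusted p = 0.125), without mouse 2 (0.0634), without Trbv4 (0.0523) or by DESeq2 (0.0813), and with at least 2 UMIs per clone its log2 fold change was 0.02.

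Trbv17 (41163092 to 41163556) was used by 1.63%, 1.55% and 1.61% of coding and by 3.81%, 3.93% and 3.85% of non-coding clones (log2 fold change 1.28, SE 0.07, edgeR adjusted p = 3.72e-06). Trbv29 (41271403 to 41271881) is, with Trbv22, the other V segment in these files that RefSeq annotates as a pseudogene, although 4236 coding clones used it. Its share was 1.52%, 1.08% and 1.35% of coding and 3.49%, 2.92% and 3.17% of non-coding clones (log2 fold change 1.29, SE 0.09, edgeR adjusted p = 8.9e-06). The classes were told apart by the CDR3 alone, so that a clone counted as coding may carry a stop codon or a frameshift elsewhere in its V segment.

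Trbv4 (41059443 to 41059886) was the most used gene of the non-coding clones and ranked 10th among the coding clones. Its share was 4.57%, 4.62% and 4.42% of coding clones and 10.7%, 10.6% and 10.6% of non-coding clones (log2 fold change 1.23, SE 0.05, edgeR adjusted p = 5.12e-07). Trbv4, Trbv12-1 and Trbv24 together took 5.36% ± 0.0792 of coding and 24.3% ± 0.378 (SD, n = 3) of non-coding clones. Trbv5, which lies next to Trbv4, took 9.51%, 9.36% and 9.07% of coding and 9.34%, 9.64% and 8.82% of non-coding clones. It did not pass the test (log2 fold change -0.01, SE 0.05, edgeR adjusted p = 0.924).

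Trbv15 and Trbv14 rose by less, with log2 fold changes of 0.49 and 0.40. With at least 2 UMIs per clone Trbv15 turned to -0.14 and with stop clones alone to -0.30, and Trbv14 passed in neither setting nor without mouse 1 (edgeR adjusted p = 0.0531). Trbv2, Trbv1, Trbv3, Trbv20, Trbv26 and Trbv19 fell by 0.88, 0.81, 0.79, 0.76, 0.62 and 0.57 on the log2 scale, and Trbv31 and Trbv16 by 0.31 and 0.25. Trbv31 did not pass without mouse 1 (edgeR adjusted p = 0.137), without mouse 2 (0.0942), without Trbv4 (0.13), with frameshift clones alone (0.11) or with UMIs in place of clones (0.593), and turned to 0.01 with at least 2 UMIs per clone. Trbv16 did not pass without mouse 1 (0.0985), without Trbv4 (0.0538), by DESeq2 (0.0756) or with at least 2 UMIs, and Trbv3, Trbv19 and Trbv26 did not pass with at least 2 UMIs. Trbv31, the only one of these genes that lies beyond the Trbj segments and joins by inversion, stood at 5.44%, 5.22% and 7.38% of non-coding clones. Its value in mouse 3 lay within the range of 6.98% to 7.53% among coding clones.

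The V profiles were alike between mice and apart between classes. The share of clones that would have to change gene to turn one profile into the other was 27.6% to 28.4% between the coding and the non-coding clones of the same mouse. It was 3.09% to 3.76% between the coding clones of 2 mice and 3.15% to 5.64% between the non-coding clones of 2 mice. With frameshift clones alone 20 genes passed, 10 in each direction. With stop clones alone 17 genes passed, 5 higher and 12 lower, and Trbv12-2 had a log2 fold change of -0.17. Trbv4 took 50.9% of the stop clones, which follows in part from their definition, as set out below. This lowers the shares of all other genes, and the median log2 fold change in this setting was -1.26. Falls of other genes with stop clones alone need therefore not be particular to a gene.

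The ends of the V segments bear on the stop clones. The most common CDR3 start among untrimmed clones of a gene is given from the cysteine codon to the last V base, with a stop codon in reading frame in capitals, for Trbv4, for its neighbours Trbv3 and Trbv5 and for Trbv24.
Trbv4: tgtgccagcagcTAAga
Trbv3: tgtgccagcagcttagc
Trbv5: tgtgccagcagccaaga
Trbv24: tgtgccagcagtctgta

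Of the 24 Trbv genes, Trbv4 was the only one whose most common untrimmed end held a stop codon in reading frame, TAA at codon 5 of the CDR3, found in 305 of 513 untrimmed Trbv4 clones. Of the 851 stop clones, 433 (50.9%) used Trbv4, namely 156, 179 and 98 in the 3 mice, and in 424 of them the stop codon was codon 5. That an in-frame clone with this codon counts as a stop clone follows from how the classes were defined, and the same definition takes such clones out of the coding class. Frameshift clones were not defined by it. Of 1830 frameshift clones that also held a stop codon, 885 (48.4%) used Trbv4.

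Among coding Trbv4 clones, 3.21%, 4.14% and 4.14% had lost fewer than 3 bases of the V end, the number that leaves TAA intact. Among frameshift Trbv4 clones, 43.4%, 43.5% and 42.4% had, and among stop clones 91.7%, 87.2% and 87.8%. The low coding values follow in part from the definition, which moves in-frame clones with the intact TAA from the coding to the stop class. Among all in-frame Trbv4 clones, coding and stop together, the share was 5.87%, 6.37% and 6.45%. This grouping does not use the stop codon and was added after seeing the data. Over all other Trbv genes except Trbv24, the share was 56.7% ± 0.295 for coding and 54.1% ± 0.194 (SD, n = 3) for frameshift clones. With frameshift clones alone, the log2 fold change of Trbv4 against coding clones was 0.98 (edgeR adjusted p = 3.35e-05), and the coding class here still lacks the clones that the definition removed. Of all in-frame clones, 4.701%, 4.74% and 4.53% used Trbv4, and of frameshift clones 8.92%, 9.10% and 8.83%, values given with no test.

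**Figure D2:**
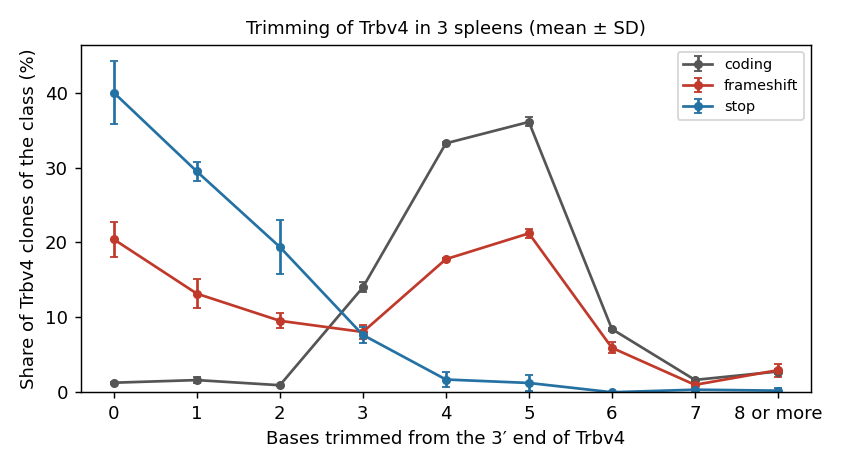
Number of bases trimmed from the 3′ end of Trbv4 (x axis) against the share of Trbv4 clones of the class (y axis, %), as the mean of 3 spleens with SD, for coding (grey), frameshift (red) and stop clones (blue). Of coding clones 1.27% were untrimmed and 36.1% had lost 5 bases, and frameshift clones showed 1 peak at 0 bases (20.4%) and another at 5 bases (21.2%).

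The first stop codon of stop clones lay within the V part in 49.0% ± 2.50, across the V end in 13.9% ± 0.610, between V and J in 25.9% ± 2.65, across the J start in 6.85% ± 2.15 and within the J part in 4.33% ± 0.0860 (SD, n = 3). It was TAA in 58.1% ± 3.26, TGA in 22.6% ± 2.37 and TAG in 19.3% ± 3.69 (SD, n = 3). Of the 490 stop clones with TAA, 382 were Trbv4 clones with TAA as codon 5, so the TAA share rests largely on this gene. The Trbv24 end closes with the incomplete codon ta. Trbv24 was used by 51 stop clones, of which 42 had lost fewer than 3 bases of it, against 250 of 593 coding and 778 of 1776 frameshift Trbv24 clones. This cut was set by the Trbv4 end, and only untrimmed Trbv24 clones keep ta. In an in-frame clone, an a or g after a kept ta makes a stop codon. The high value of stop clones may thus follow in part from their definition.

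J gene use differed less. Trbj1-6, Trbj2-1 and Trbj1-2 took a larger, and Trbj2-2, Trbj1-1, Trbj2-5 and Trbj2-3 a smaller share of non-coding than of coding clones. Of 12 Trbj genes tested, 7 passed (58.3%), 3 higher (25%) and 4 lower (33.3%). Trbj1-6 was used by 3.38%, 3.37% and 3.04% of coding and by 5.06%, 4.32% and 4.79% of non-coding clones (log2 fold change 0.51, SE 0.09, edgeR adjusted p = 2.41e-05). Trbj2-1 was used by 9.12%, 9.26% and 9.60% of coding and by 11.7%, 12.4% and 12.03% of non-coding clones (log2 fold change 0.38, SE 0.03, edgeR adjusted p = 2.19e-12). Trbj1-2 rose from 5.31% ± 0.295 to 6.61% ± 0.295 (SD, n = 3), a log2 fold change of 0.31.

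Trbj1-1 was used by 10.3%, 10.4% and 9.93% of coding and by 8.70%, 8.71% and 8.02% of non-coding clones (log2 fold change -0.26, SE 0.03, edgeR adjusted p = 1.68e-08). Trbj2-2, Trbj2-5 and Trbj2-3 fell by 0.27, 0.23 and 0.11 on the log2 scale. Trbj2-3 did not pass without mouse 1 or by DESeq2. Trbj2-7, the most used gene of both classes, took 17.0% ± 0.315 of coding and 17.1% ± 0.117 (SD, n = 3) of non-coding clones and did not pass (log2 fold change 0.01, SE 0.02, edgeR adjusted p = 0.462). Trbj1-3, Trbj1-4, Trbj1-5 and Trbj2-4 also did not pass. Trbj2-6, a pseudogene in RefSeq, and Trbj1-7 were each found in 1 non-coding and in 0 coding clones. The J profiles of the classes differed by 5.93% to 6.55% within mice, those of coding clones by 1.09% to 2.50% between mice and those of non-coding clones by 1.83% to 2.70%. With stop clones alone 0 Trbj genes passed (edgeR quasi-likelihood test), and 1 had an unadjusted p under 0.05.

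**Figure D3:**
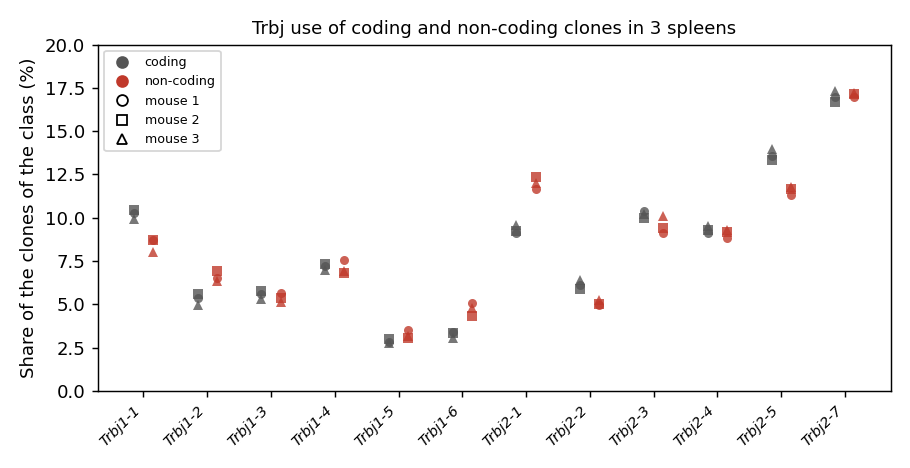
Share of the clones of each class (y axis, %) that used each of 12 Trbj genes (x axis), with grey symbols for coding and red symbols for non-coding clones and a symbol shape for each of the 3 mice. Trbj2-1 and Trbj1-6 stood higher and Trbj1-1 and Trbj2-5 lower in non-coding clones in every mouse, while Trbj2-7 lay at about 17% in both classes.

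The other readouts have 1 value per class and mouse and were compared by an exact two-sided sign-flip permutation test over the 3 mice, which cannot give a p below 0.25. Of 16 such readouts, 15 had the same direction in 3 of 3 mice, each with an exact p of 0.25 and an adjusted value of 0.267. The exception was the Trbj1 cluster, which took 34.7%, 35.5% and 32.97% of coding and 37.1%, 35.3% and 34.4% of non-coding clones (exact sign-flip p = 0.5).

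D segments were recognised slightly more often in non-coding clones. No D was called in 28.3%, 28.2% and 28.1% of coding and in 27.0%, 25.8% and 27.8% of non-coding clones. In mouse 3 the values differed by 0.28 percentage points. Trbd1 can join both Trbj clusters, while Trbd2 lies between them and joins Trbj2 by deletion. Among clones with a D called, Trbd1 made up 60.5%, 61.4% and 59.9% in coding and 61.9%, 62.1% and 61.3% in non-coding clones. Within Trbj2 clones the Trbd1 share was 46.6% ± 0.360 in coding and 47.5% ± 0.725 (SD, n = 3) in non-coding clones, and within Trbj1 clones 91.9% ± 0.153 and 91.4% ± 0.147 (SD, n = 3). The other Trbj1 clones with a D called were assigned Trbd2, which by its position does not join Trbj1 by deletion. Such calls may be wrong, and the error of the D call was not measured. Differences in D share this small can therefore not be told from call errors. Several D segments fitted 19.1% to 19.4% of the clones with a D called, and the first one was counted. The kept D was 8.09 ± 0.0150 bases long in coding and 8.24 ± 0.0255 (SD, n = 3) in non-coding clones.

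CDR3s of non-coding clones were longer on average and more spread. The mean length was 41.6 bases in the coding clones of each mouse and 42.3, 42.4 and 42.3 bases in the non-coding clones. The difference was 0.768 ± 0.0524 bases (SD, n = 3), higher in 3 of 3 mice (exact sign-flip p = 0.25). The standard deviation of the length over clones was 4.10, 4.11 and 4.12 bases in coding and 5.50, 5.71 and 6.01 bases in non-coding clones. CDR3s of under 33 bases made up 0.868% ± 0.000524 of coding and 4.52% ± 0.391 (SD, n = 3) of non-coding clones, and those of 51 or more bases 2.15% ± 0.0327 and 3.21% ± 0.0792 (SD, n = 3). The middle class of 42 to 44 bases held 31.1% ± 0.0833 and 27.1% ± 1.26 (SD, n = 3). Every 3-base class holds an in-frame length and both shifts, but the in-frame length is its lowest. Coding clones thus stand at the start of each length class and frameshift clones at both longer lengths. In mouse 1, 1.38% and 1.46% of frameshift clones had 31 and 32 bases, while the longest coding CDR3s under 33 bases had 30. The excess under 33 bases depends in part on these edges, and how much was not tested. Stop clones, which share the frame of coding clones, had mean lengths of 43.1, 44.3 and 43.6 bases. Their medians were 42, 45 and 42 bases, against 42 in the coding clones of each mouse. The length of stop clones also depends on their definition, since a longer CDR3 has more codons that can be a stop. The longest CDR3, a stop clone of mouse 2, had 288 bases. With CDR3s of at most 80 bases, the difference in mean was 0.714 and the standard deviation of non-coding clones 5.14 bases. Within V and J pairs, the difference in mean was 0.818 bases. By gene, the mean was higher in non-coding clones for 20 of 24 Trbv genes.

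**Figure D4:**
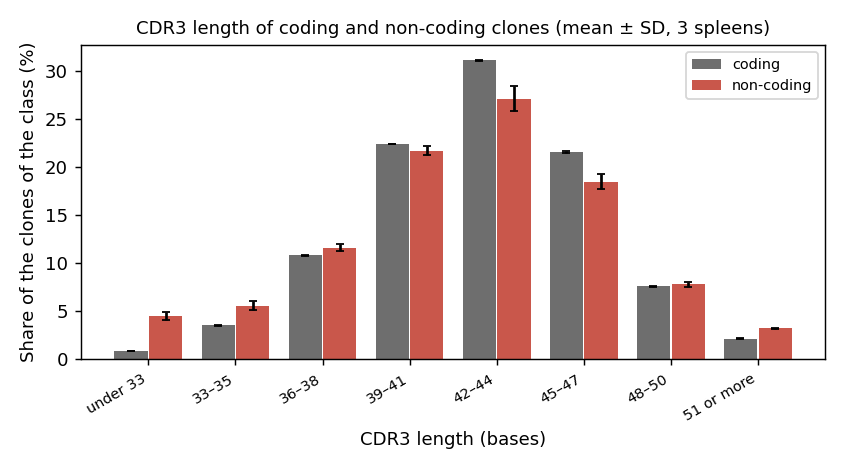
CDR3 length in classes of 3 bases (x axis) against the share of the clones of the class (y axis, %), as bars of the mean of 3 spleens with SD, grey for coding and red for non-coding clones. Non-coding clones were more frequent under 36 bases and at 51 or more bases and less frequent from 42 to 47 bases. In each 3-base class, coding clones stand at the lowest length and frameshift clones at both longer ones, so the bars depend in part on the class edges.

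The joints of non-coding clones held more inserted bases. Coding clones had 3.11, 3.11 and 3.07 and non-coding clones 3.50, 3.52 and 3.66 bases between the segments that matched neither V, D nor J. The difference was 0.461 ± 0.106 bases (SD, n = 3). Joints without any inserted base made up 13.2%, 13.2% and 13.7% of coding and 11.9%, 11.9% and 10.97% of non-coding clones. Of the V end, 2.42, 2.42 and 2.43 bases were trimmed in coding and 2.63, 2.64 and 2.56 bases in non-coding clones. This direction turned when clones were compared within V and J pairs, where the difference was -0.0165 bases. Trbv4 clones had lost 4.45 ± 0.0148 bases in coding and 2.67 ± 0.0411 (SD, n = 3) in non-coding clones. Without Trbv4, the difference was 0.272 bases over all clones and 0.195 ± 0.0186 bases (SD, n = 3) within V and J pairs. By gene, non-coding clones had lost more V bases for 19 of 24 Trbv genes and fewer for Trbv1, Trbv2, Trbv4, Trbv23 and Trbv24. Trimming of J was 2.81 ± 0.0101 bases in coding and 2.78 ± 0.0327 (SD, n = 3) in non-coding clones, and the difference turned without Trbv4.

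Non-coding clones were small. They held 1.09, 1.13 and 1.05 UMIs per clone, and coding clones 1.46, 1.60 and 1.25. Every non-coding value lay below every coding value. The log2 ratio was -0.39 ± 0.12 (SD, n = 3), lower in 3 of 3 mice (exact sign-flip p = 0.25). Clones of 1 UMI made up 72.3%, 65.0% and 81.9% of coding and 92.9%, 90.4% and 95.9% of non-coding clones. Reads per UMI were close, at 13.01, 8.53 and 21.2 for coding and 13.3, 8.79 and 21.2 for non-coding clones. Without clones of 10 or more UMIs the log2 ratio was -0.37, and within V and J pairs -0.35.

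The share of non-coding clones was highest among clones of 1 UMI. It was 8.05%, 8.94% and 6.34% among clones of 1 UMI, 2.12%, 2.53% and 1.49% among clones of 2 UMIs and 0.710%, 0.677% and 0.532% among clones of 3 to 4 UMIs. Among clones of 5 to 9 UMIs it was 0.702%, 0.422% and 0.545%. Of the clones with 10 or more UMIs, 3 of 281, 7 of 431 and 0 of 61 were non-coding. The 0 allows a share of up to 4.92%.

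**Figure D5:**
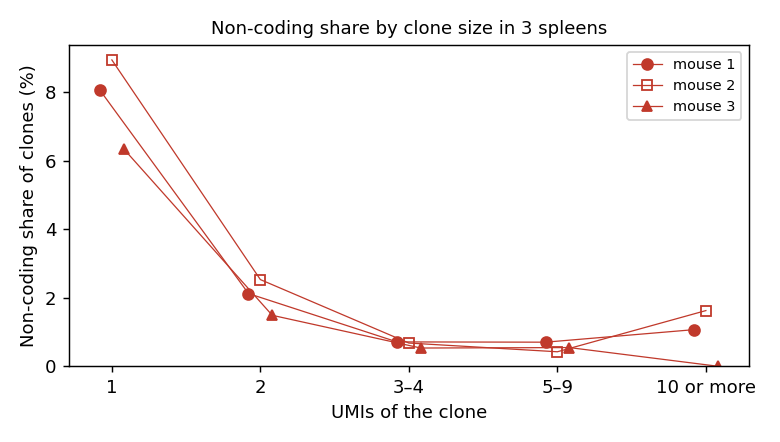
Number of UMIs of a clone (x axis, 5 classes) against the non-coding share of the clones of that size (y axis, %), with a symbol and line for each of the 3 mice. The share was 6.34% to 8.94% at 1 UMI and 0.422% to 0.702% at 5 to 9 UMIs, and the last class rests on 3, 7 and 0 non-coding clones.

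By gene, UMIs per non-coding clone ranged from 1.04 to 1.15 over the 24 Trbv genes, and were lower than those of coding clones in 3 of 3 mice for 20 genes. The exceptions were Trbv21, Trbv22, Trbv24 and Trbv30. Coding Trbv24 clones held 1.08, 1.13 and 1.04 UMIs per clone and non-coding Trbv24 clones 1.06, 1.11 and 1.06. Coding Trbv22 clones, few in number, held 1.11, 1 and 1.1. Outside Trbv22 and Trbv24, coding clones held between 1.15 and 1.69 UMIs per clone as means over the mice, with Trbv1 highest. The lowest was Trbv21, itself an exception, with 1.46, 1 and 1 in the 3 mice. The 4 exceptions were picked out after their values were seen, and the difference between genes was not tested.

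Sequencing errors can turn a large coding clone into a small clone that is 1 base away. Clones 1 substitution, insertion or deletion away from a clone with the same V and J and at least 2 times the UMIs made up 7.69%, 9.62% and 5.15% of coding and 3.89%, 5.48% and 2.19% of non-coding clones. A substitution in a coding clone cannot give a frameshift clone, which needs an insertion or deletion. These shares can therefore not show which class holds more errors. A lowest CDR3 quality under 30 was seen in 0.378%, 0.725% and 0.179% of coding and in 0.695%, 1.47% and 0.222% of non-coding clones. Without the neighbours, 21 Trbv and 7 Trbj genes passed, as with all clones.

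Non-coding clones were rarely shared between spleens. Identical CDR3, V and J were found for 12 non-coding clones in mice 1 and 2, for 3 in mice 1 and 3 and for 2 in mice 2 and 3. All were frameshift clones. Thinned to the same numbers of clones, coding clones would give 29.3, 15.0 and 18.8 shared clones. Exact 95% Poisson intervals of the non-coding numbers were 6.20 to 21.0, 0.619 to 8.77 and 0.242 to 7.22, each below the thinned coding number. Per possible pair of clones, the log2 ratio of non-coding to coding sharing was -1.29, -2.32 and -3.23, and no p is given because the pairs share libraries. In all 3 spleens, 0 of 21883 distinct non-coding clones were found, which allows up to 0.0137%. Of 315262 coding clones, 1452 were found there (0.461%). Unlike the pair numbers, these shares were not thinned to equal numbers of clones. Since sharing depends on how many clones each library holds, they cannot be compared between the classes.

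Shared clones of both classes had short joints. Coding clones found in another spleen had 1.69 ± 0.00762 inserted bases and private ones 3.22 ± 0.00757 (SD, n = 3). The 15, 14 and 5 non-coding clones of mice 1, 2 and 3 found in another spleen had 1.60, 1.57 and 2.00 inserted bases, and the private ones 3.56 ± 0.0845 (SD, n = 3). Of the shared clones, 27.0% ± 5.80 of coding and 15.7% ± 7.42 (SD, n = 3) of non-coding ones were 1-base neighbours of a larger clone. Without the neighbours the mean log2 ratio of sharing was -1.81 in place of -2.28, and among clones of 1 UMI it was -1.83. In both settings the interval of mice 1 and 2 held the thinned coding number. Without neighbours, these mice shared 10 non-coding clones (4.80 to 18.4) against 16.3 for coding clones, a log2 ratio of -0.71. Among clones of 1 UMI, they shared 11 (5.49 to 19.7) against 15.8, a log2 ratio of -0.52. With at least 10 reads and no neighbours, they shared 3 (0.619 to 8.77) against 7.61. The intervals of the other 2 pairs lay below the coding number in these 3 settings.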

How the data were processed

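CD4+ T cells of the spleen and the UUO kidney of 3 mice were analysed, 1 TCR-β library each. TCR-β mRNA was amplified by 5′ RACE with UMIs and assembled into clones with MiXCR by the authors, who deposited raw counts of UMIs and of reads for every clone. Also deposited is the lowest quality score of each CDR3, which served as a filter in an alternative. The submitters' processing notes name GRCm38 and mm10. The members and lists were chosen with earlier results of these data known.

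A clone was a CDR3 nucleotide sequence with its first V and J hit. Joints were read from the reference points in the files, and inserted bases are those outside V, D and J. Frameshift and stop clones were taken from the signs in the translated CDR3. Genes with at least 10 clones over the 6 columns of class and mouse were tested by edgeR on distinct clones, with the number of clones of the class as library size and the mouse as a block, since both classes come from the same library. Sharing was scaled by the product of clone numbers. Named are the 8 Trbv genes with the largest change, pseudogenes, all Trbj and Trbd genes and the 2 largest frameshift and stop clones of each spleen without ties, and other genes are given within counts or families or as neighbours. All 24 Trbv names matched RefSeq symbols of GRCm38.p6.

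Alternatives changed the minimum UMIs, neighbours, quality, the class, the mice, the unit (UMIs), TMM, DESeq2, the block, the filter, the D call and the comparison within V and J pairs. Those without Trbv4, without CDR3s over 80 bases, with at least 10 reads, with 1 D hit, of clones of 1 UMI, of trimming within V and J pairs, and of frameshift against all in-frame Trbv4 clones were added after seeing the data. The gene tests were tested on simulated data. Gene tests ran in edgeR 4.0.16 and DESeq2 1.42.0 (R 4.3.3), and all else in Python 3.11.15 (scipy 1.17.1, numpy 2.4.6, pandas 2.3.3), with plots by matplotlib 3.10.9.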

Additional observations from a re-analysis of the deposited data

How the results depend on the processing

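Of the comparisons of main values under the alternatives, 253 were kept, 14 moved and 7 turned. For differences and log2 ratios of readouts, kept means only the same sign. For numbers of genes it means a count within a fixed fold of the main count. For shares and sharing it means a mean within the main SD. Of the comparisons of single genes and minor readouts, 656 kept direction and call, 33 lost and 6 gained the call and 30 turned. Minor readouts were judged by direction alone. Some of this agreement was fixed in advance. Clones as deposited rows were the same as the main clones. Changing the minimum of clones per gene left all Trbv values as they were. With at least 2 UMIs per clone, 11 Trbv genes passed (6 higher, 5 lower) and 3 Trbj genes (1 lower), the non-coding share was 1.63% of clones and 1.42% of UMIs, the difference in bases trimmed from J was 0.107, and the log2 fold changes of Trbj1-3, Trbj1-4 and Trbj1-5 were 0.18, 0.0092 and -0.041, those of Trbv15, Trbv31, Trbv13-1 and Trbv5 were -0.14, 0.013, 0.022 and 0.20, the Trbd1 share in Trbj1 clones differed by 0.878 and the log2 ratio of reads per UMI was -0.17. With stop clones alone, 5 Trbv genes were higher, 0 Trbj genes passed in either direction, Trbv12-2, Trbj1-1, Trbj1-3, Trbj2-4 and Trbj2-7 had log2 fold changes of -0.17, 0.028, 0.15, 0.11 and -0.052, Trbv15 and Trbv23 of -0.30 and -1.37, Trbv17 and Trbv21 did not pass with 0.24 and 2.71, Trbv30, with 0 stop clones, had a fitted -10.07 that is no bound, and the differences were 2.61 percentage points for no D called, 4.39 for Trbd1 in Trbj1 clones, -0.182 bases of D kept, -0.648 bases trimmed from V and 0.0875 from J. With frameshift clones alone, Trbv5 had 0.029. Within V and J pairs, V trimming differed by -0.0165 bases, and by 0.195 without Trbv4. Without Trbv4, Trbv5 had 0.089, J trimming differed by 0.00125 bases, the non-coding share of UMIs was 4.45% and Trbj2-7 had a log2 fold change of -0.00088. With at least 10 reads and no neighbours, the share of UMIs was 4.10%, and Trbj1-3, Trbj2-7 and Trbv23 had 0.073, -0.0028 and -0.0086. With UMIs in place of clones, Trbj1-4 had 0.00496. The cause of these changes was not tested. Trbv values with stop clones alone are also subject to the large Trbv4 share of that class.

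Without the mouse as a block, 21 Trbv and 7 Trbj genes passed, as with the pairing. Leaving out 1 mouse, 17 to 21 Trbv genes passed (9 to 11 higher, 8 to 11 lower) and 6 to 8 Trbj genes. The log2 fold changes ranged from -0.071 to 0.039 for Trbj1-4 and from -0.0039 to 0.021 for Trbj2-7, in each case turning without mouse 2, from -0.033 to 0.013 for Trbv5, turning without mouse 1 or 3, and from -0.094 to 0.81 for Trbv30, which turned without mouse 1 and passed without mouse 2. The log2 ratio of sharing ranged from -3.23 to -1.29, with each value resting on 1 pair of spleens, and the mean length difference from 0.752 to 0.798 bases. Sharing of non-coding clones could not be computed with at least 2 UMIs, for stop clones or with at least 10 reads, since 0 clones were shared in at least 1 pair.

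Most non-coding clones rest on 1 UMI, and differences in size among those cannot be seen. The 3 spleens limit every sign-flip test to a p of 0.25, and edgeR measures the spread between these 3 treated mice. No cell numbers, genomic DNA or untreated mice were analysed here.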
